A study of Mus musculus with 9 samples.

Results

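To describe the osteoblast program in the mandible, 9 genes were taken from the count table by their symbols: Runx2, Sp7, Alpl, Bglap, Bglap2, Bglap3, Phospho1, Ifitm5 and Pth1r. They are 9 of 27179 rows, each symbol had a single row, and all 9 had enough counts to be tested among 16329 genes. The symbols were listed by hand with earlier results of these data known, though no measured value entered the rule itself. Poly(A) RNA came from whole mandibles with their teeth of male C57BL/6 mice aged 6 months, 5 of them wild type (WT) and 4 labelled FcγRIIB-/-, a germline deletion of the inhibitory Fc receptor for IgG that is used as a model of lupus. Each library is 1 mouse, and the totals were 24158960 to 26787359 counts in WT and 21453880 to 28991631 counts in the libraries labelled FcγRIIB-/-. The question was whether bone-forming genes differed between the genotypes.

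Osteoblasts make bone in steps. Runx2 commits mesenchymal cells to the lineage and Sp7, also called osterix, acts downstream of it, so that type I collagen, phosphatases and osteocalcin are made in turn. The phosphatases encoded by Alpl and Phospho1 set the supply of phosphate and the removal of pyrophosphate, which decide where mineral forms, and osteocalcin is a small protein of mature osteoblasts that binds calcium through carboxylated glutamates. Odontoblasts and other dental cells use several of these genes too, so the mandible with its teeth is a mixed source of their RNA.

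The osteocalcin genes lie side by side on the minus strand of chromosome 3 of GRCm38 (mm10): Bglap3 from 88368616 to 88372743, Bglap2 from 88377736 to 88378699 and Bglap from 88383501 to 88384464 in GENCODE vM21. The gaps between them are 4992 and 4801 bases. Their coding sequences, 285 bases each without the stop codon, are shown because the counts of these 3 rows turn on how few bases tell the copies apart. Capitals mark bases that differ from Bglap2 in the Bglap line, and from Bglap in the other lines.
Bglap: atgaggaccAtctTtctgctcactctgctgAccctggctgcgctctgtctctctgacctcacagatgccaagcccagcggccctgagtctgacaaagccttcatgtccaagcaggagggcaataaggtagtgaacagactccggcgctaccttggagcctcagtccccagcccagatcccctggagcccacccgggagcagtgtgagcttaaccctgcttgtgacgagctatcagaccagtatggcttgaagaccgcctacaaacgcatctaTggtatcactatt
Bglap2: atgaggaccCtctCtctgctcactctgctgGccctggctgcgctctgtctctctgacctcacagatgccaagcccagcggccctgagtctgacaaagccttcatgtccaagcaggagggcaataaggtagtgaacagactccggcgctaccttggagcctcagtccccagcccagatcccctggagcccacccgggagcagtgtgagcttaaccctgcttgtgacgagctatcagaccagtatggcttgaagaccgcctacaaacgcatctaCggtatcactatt
Bglap3: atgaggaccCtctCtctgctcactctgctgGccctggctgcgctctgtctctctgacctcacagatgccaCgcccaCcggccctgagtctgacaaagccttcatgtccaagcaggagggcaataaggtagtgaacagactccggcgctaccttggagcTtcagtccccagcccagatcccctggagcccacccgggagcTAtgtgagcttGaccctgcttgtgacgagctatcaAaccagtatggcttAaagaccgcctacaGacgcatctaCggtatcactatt
Bglap and Bglap2 differed at 4 of the 285 bases (98.6% identity) and shared an unbroken run of 241 bases. Bglap3 differed from Bglap at 13 bases (95.4% identity) and from Bglap2 at 9 (96.8%). The reads were 75 bases long. Of the 366 windows of 75 bases along the Bglap transcript, 242 (66.1%) occur letter for letter in another gene's transcript, and the share was 73.3% for Bglap2 and 9.33% for Bglap3. How reads that match several copies were counted is not given in the sources used here, so the division of reads between Bglap and Bglap2 is uncertain, and the sum of the 3 rows is given as well.

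The other genes can be counted apart from near copies with these exceptions. For Phospho1 (chromosome 11, 95824499 to 95832140, plus strand), 84.6% of the windows also lie in annotated transcripts of the overlapping genes Zfp652 and Abi3. For Ifitm5 (chromosome 7, 140948958 to 140950291, minus strand) 22.6% lie in the overlapping model Gm45717. For Runx2 (chromosome 17, 44495987 to 44814797, minus strand) the share was 0.464%, although its locus overlaps Supt3. For Sp7 (chromosome 15, 102356606 to 102367182), Alpl (chromosome 4, 137741733 to 137796384) and Pth1r (chromosome 9, 110722085 to 110747145), all on the minus strand, it was 0. The Pth1r locus overlaps Myl3 on the other strand in GENCODE vM21 but not in RefSeq, and the level of Myl3 is not given here. These overlaps are those of GENCODE vM21. In the RefSeq genes of GRCm38.p6, whose identifiers the counts carry, Ifitm5 overlapped no gene and Phospho1 only Abi3. Runx2 overlapped Supt3 there too. The library kit keeps strand, but the annotation and strand setting of the counting are not given in the sources used here. Which overlaps entered the counts was not tested.

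Runx2 protein binds the letters ACCACA, and the promoters of Bglap and Runx2 that hold this motif are shown because the levels of these genes are compared with each other. The RefSeq table for GRCm38.p6 gives 250 bases before and 50 after each start. It held 12 promoters for 7 of the 9 genes, and Sp7 and Bglap2 were not in it. Capitals mark ACCACA on the coding strand, and its reverse complement TGTGGT was searched as well.
Bglap promoter (chr3:88384417-88384716, minus strand): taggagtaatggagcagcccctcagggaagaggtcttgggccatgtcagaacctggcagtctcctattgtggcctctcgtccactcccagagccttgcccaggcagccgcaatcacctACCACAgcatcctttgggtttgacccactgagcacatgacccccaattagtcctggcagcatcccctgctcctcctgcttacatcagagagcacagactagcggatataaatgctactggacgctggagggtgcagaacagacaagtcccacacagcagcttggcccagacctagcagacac
Runx2 promoter (chr17:44814578-44814877, minus strand): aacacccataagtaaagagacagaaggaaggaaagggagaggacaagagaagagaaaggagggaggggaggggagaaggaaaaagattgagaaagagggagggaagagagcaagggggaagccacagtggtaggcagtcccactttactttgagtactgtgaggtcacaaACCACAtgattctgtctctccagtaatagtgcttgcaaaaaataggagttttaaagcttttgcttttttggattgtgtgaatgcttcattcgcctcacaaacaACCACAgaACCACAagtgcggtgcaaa
The Bglap promoter held 1 match, starting 132 bases before the start. The Runx2 promoter held 3, starting 80 bases before it and at bases 24 and 32 after it. Matches were found in 2 of the 12 promoters. Among all 32851 promoters of this length 16.8% held at least 1 match and 0.183% held 3 or more. A match of 6 letters is a description of the sequence and does not by itself show binding.

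In the comparison of the genotypes, Sp7 and Ifitm5 were lower than WT in the libraries labelled FcγRIIB-/-, and 0 of the 9 genes were called higher (1 at an unadjusted p under 0.05, edgeR's quasi-likelihood test, Benjamini-Hochberg adjusted over 16329 genes, threshold 0.05). They fell 1.19-fold and 1.45-fold. For Bglap the fitted ratio to WT was 1.51, which did not pass (adjusted p = 0.0702, and 0.0201 with DESeq2). Calls were frequent in these libraries as a whole. Over all tested genes 33.3% were called, 14% higher and 19.3% lower, so 2 of 9 called is not a larger share than the background. The CPM (counts scaled to a common library size with TMM) of the groups did not overlap for 2 of the 9 genes, both lower, against 29.6% of all tested genes (12.1% higher and 17.5% lower).

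Fcgr2b, the gene named in the label, was not lower in these libraries. It had 24.0 ± 8.28 CPM (mean ± SD, n = 5) in WT and 27.8 ± 2.90 CPM (n = 4) in the libraries labelled FcγRIIB-/-, with a log2 fold change of 0.21 (adjusted p = 0.442, edgeR). The groups are therefore named by their labels throughout.

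Markers of other tissues of the mandible differed between the groups, and they are given before the genes because each library mixes RNA of these tissues. Erythroid markers were lower for 9 of 9 tested genes, with a summed level of 726 to 958 CPM in WT and 32.5 to 179 CPM in the libraries labelled FcγRIIB-/-. Granulocyte markers were lower for 10 of 10 (1140 to 3471 against 140 to 421 CPM), and osteoclast markers for 7 of 8 (904 to 1289 against 312 to 565 CPM). Ameloblast markers, which make enamel matrix, were higher for 5 of 7 (9528 to 25810 against 29150 to 50410 CPM), and muscle markers for 7 of 10 (7491 to 17490 against 18300 to 31510 CPM). Of the epithelial keratins and envelope genes 6 of 8 were lower and 1 was higher (5456 to 19790 against 4323 to 5419 CPM). Osteocyte markers were lower for 2 of 5 (Sost and Mepe, named after their values were seen), but the sums of the list overlapped (682 to 1310 against 729 to 1020 CPM). Both were uneven in WT, at 82.1 ± 151 CPM for Sost and 57.8 ± 105 CPM for Mepe, and the groups overlapped for Sost. For odontoblasts 1 of 3 was higher (2887 to 6954 against 5782 to 7787 CPM). For adipocytes 1 of 3 was higher and 1 lower, and the sums did not overlap (49.4 to 89.0 against 114.5 to 166 CPM). Most of that sum was Fabp4, named after its values were seen (means 68.2 and 141 CPM). For cartilage 1 of 7 was lower, and for endothelium 0 of 5 were called by edgeR, with 0 at an unadjusted p under 0.05. No list had a tested marker at 0 in every library. In bulk RNA, fewer cells of a type and less RNA per cell cannot be told apart, and the part of these shifts in the results for the 9 genes was not tested.

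**Figure D1:**
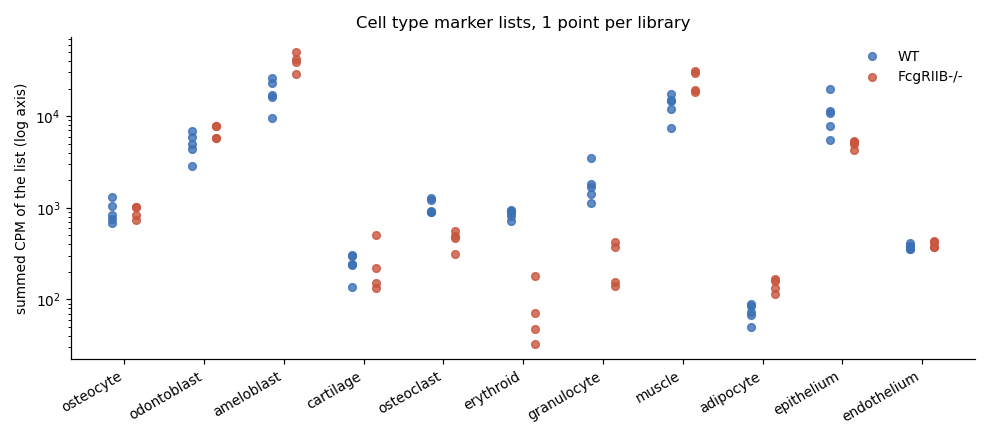
Summed CPM of each cell type marker list (log axis) in 5 WT libraries (blue) and 4 libraries labelled FcγRIIB-/- (red), 1 point per library. The erythroid, granulocyte and osteoclast sums of the red points lie below all blue points, and the epithelium sums do so by a narrow margin. The ameloblast, muscle and adipocyte sums lie above them, and the osteocyte sums overlap.

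The transcription factors were examined first. Runx2 (gene identifier 12393) had 173.8, 188.4, 183.2, 166.6 and 167.8 CPM in WT (here and later in the order of the replicate numbers), and 149.9, 175.0, 145.9 and 135.6 CPM in the libraries labelled FcγRIIB-/-. Replicates 1, 3 and 4 lay below all WT libraries and replicate 2 lay among them. The means were 176 ± 9.55 and 152 ± 16.7 CPM, and the log2 fold change of -0.22 (SE 0.08) did not pass (adjusted p = 0.0684, edgeR). It passed in 1 of 17 alternatives, without replicate 2 of the libraries labelled FcγRIIB-/-, the one that lay among WT (-0.29, adjusted p = 0.0193). In the other fits without 1 library the adjusted p reached 0.164, and with Col1a1 and Col1a2 scaling it was 0.703. Supt3, which overlaps Runx2 on the other strand, was higher by 0.36 (adjusted p = 0.0204).

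Sp7 (170574), a zinc finger factor without which osteoblasts do not mature, had 125.5, 131.3, 133.1, 130.9 and 129.1 CPM in WT and 102.8, 122.3, 109.4 and 104.0 CPM in the libraries labelled FcγRIIB-/-. The WT libraries were close together, with a coefficient of variation of 2.22%, and all 4 others lay below the lowest of them. The means were 130 ± 2.88 and 110 ± 8.93 CPM, with a log2 fold change of -0.25 (SE 0.07, adjusted p = 0.016, edgeR). Sp7 was called in 16 of 17 alternative analyses, among them all 9 in which 1 library was left out (adjusted p 0.00701 to 0.0479). It was lost when libraries were scaled to their Col1a1 and Col1a2 counts (-0.14, adjusted p = 0.584), a scaling that moved the median log2 fold change of all genes from 0.0055 to 0.11.

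The proportion of Runx2 to Sp7, a measure chosen after the counts had been seen and given with no test, overlapped between the groups. The log2 ratio of their counts was 0.44 ± 0.07 in WT and 0.46 ± 0.08 in the libraries labelled FcγRIIB-/-, a difference of 0.03. This ratio is taken within a library, so library scaling does not enter it.

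**Figure D2:**
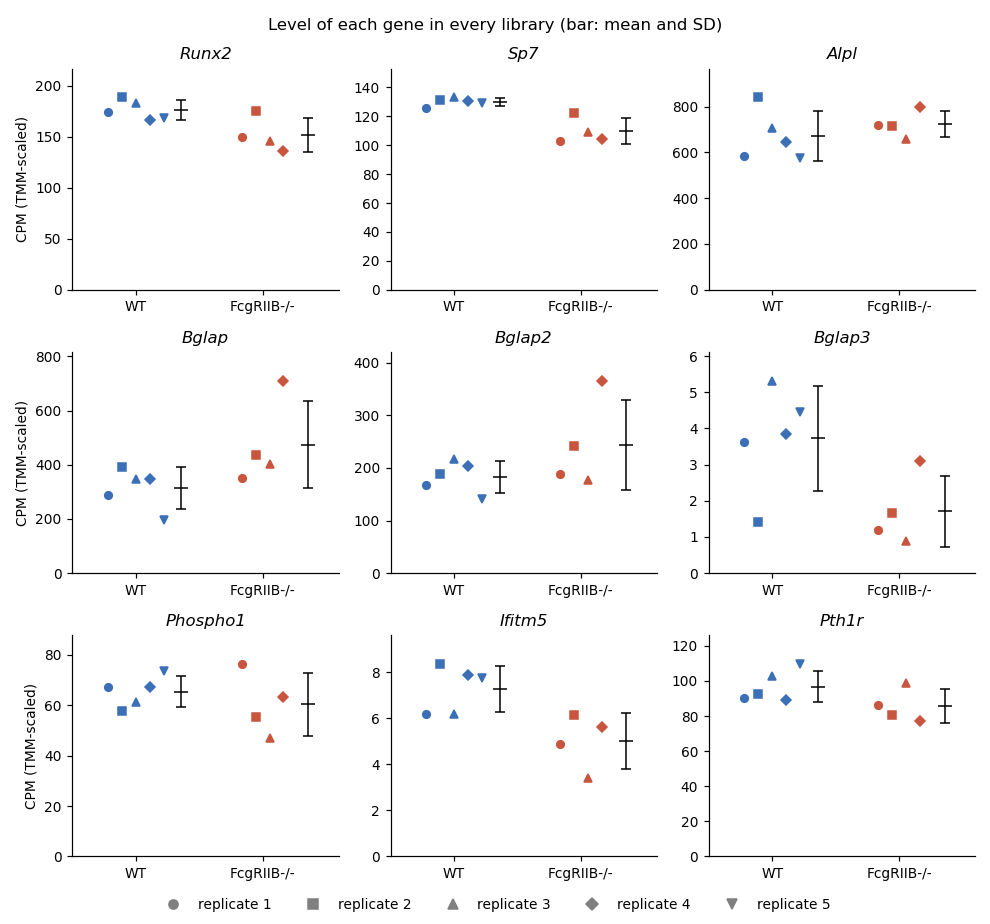
Level of each of the 9 genes in CPM (TMM-scaled, axes from 0) in the WT libraries (blue) and the libraries labelled FcγRIIB-/- (red), with a marker shape per replicate and bars for the mean ± SD. For Sp7 and Ifitm5 all red points lie below all blue points, and for Bglap and Bglap2 replicate 4 of the red group stands highest.

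The fold changes of Bglap and Bglap2 were positive, opposite in sign to those of Runx2 and Sp7. Bglap (12096), the osteocalcin row with the most counts, had 289.3, 392.9, 346.6, 345.6 and 194.8 CPM in WT and 350.7, 436.0, 401.4 and 710.0 CPM in the libraries labelled FcγRIIB-/-. Replicates 2, 3 and 4 lay above all WT libraries, replicate 1 lay among them, and WT replicate 5 was the lowest of all. The log2 fold change was 0.60 (SE 0.23), with means of 314 ± 76.0 and 475 ± 161 CPM, and it did not pass (adjusted p = 0.0702, edgeR). It passed in 3 of 16 alternatives. These were without WT replicate 2 (0.71, adjusted p = 0.0443), with Col1a1 and Col1a2 scaling (0.71, adjusted p = 0.0227) and with DESeq2 (0.61, adjusted p = 0.0201). Without replicate 4 of the libraries labelled FcγRIIB-/- it was 0.34 (adjusted p = 0.227).

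Bglap2 (12097), whose coding sequence is nearly that of Bglap, had 166.8, 188.0, 216.9, 204.3 and 140.0 CPM in WT and 188.5, 241.1, 177.9 and 365.8 CPM in the libraries labelled FcγRIIB-/-. The groups overlapped, with replicates 2 and 4 above all WT libraries. Its log2 fold change was 0.41 (SE 0.21, adjusted p = 0.151, edgeR), and 0.15 without replicate 4 of the libraries labelled FcγRIIB-/- (adjusted p = 0.5). With the 3 osteocalcin rows summed before the fit, the sum was 339 to 582 CPM in WT and 540 to 1079 CPM in the libraries labelled FcγRIIB-/-, and its log2 fold change was 0.52 (SE 0.22, adjusted p = 0.0884). The levels of the tooth marker lists stood at their ends in the same 2 libraries: the ameloblast sum was lowest in WT replicate 5 (9528 CPM) and highest in replicate 4 of the libraries labelled FcγRIIB-/- (50410 CPM), and the odontoblast sum was 2887 and 7787 CPM there. These ends were not particular to the tooth lists. In the other direction, the osteoclast sum was highest in WT replicate 5 (1289 CPM) and lowest in replicate 4 of the libraries labelled FcγRIIB-/- (312 CPM). The epithelial sum was 19790 and 4323 CPM there. The part of any of these cells in the osteocalcin counts was not tested.

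Bglap3 (12095), a related gene also known from tissues outside bone, had the lowest level per length of the 9 genes. It had 100, 35, 138, 105 and 114 counts in WT and 34, 36, 21 and 61 counts in the libraries labelled FcγRIIB-/-, or 3.62, 1.40, 5.32, 3.86 and 4.45 CPM against 1.19, 1.66, 0.890 and 3.09 CPM. WT replicate 2 lay among the lower group and the rest of WT lay above it. The means were 3.73 ± 1.46 and 1.71 ± 0.975 CPM, and the log2 fold change of -1.14 (SE 0.42) did not pass (adjusted p = 0.0575, edgeR). It passed in 3 of 16 alternatives. These were without WT replicate 2 (-1.34, adjusted p = 0.0147), without replicate 4 of the libraries labelled FcγRIIB-/- (-1.58, adjusted p = 0.0203) and with DESeq2 (-1.12, adjusted p = 0.0216). In the others without 1 library the adjusted p reached 0.139, and with the replicate block it was 0.128.

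The share of each copy in the summed osteocalcin counts does not depend on library scaling. Bglap took 62.9%, 67.5%, 60.9%, 62.4% and 57.4% in WT, and 64.9%, 64.2%, 69.2% and 65.8% in the libraries labelled FcγRIIB-/-. WT replicate 2 lay among the other group, and the widest exact (Clopper-Pearson) 95% interval, which covers counting error only, was 56.4% to 58.5% in WT replicate 5. The means were 62.2% ± 3.64 and 66.0% ± 2.20, a difference of 3.79 percentage points (two-sided exact permutation p = 0.119). Without WT replicate 2, the library that lay among the other group, the difference was 5.10 points. The groups then no longer overlapped, so its exact permutation p of 0.0286 was fixed by that choice and nothing is read from it. It was the only 1 of 11 alternatives under 0.05, and the exact p without another library reached 0.268. Bglap3 took 0.795% ± 0.388 in WT and 0.226% ± 0.0558 in the libraries labelled FcγRIIB-/-, with overlapping ranges of 0.241% to 1.31% and 0.153% to 0.287%. This share of Bglap3 was added after the counts had been seen and is given with no test.

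Bglap was compared with the transcription factors within each library, as a measure chosen after their counts had been seen. The ratios were picked with the higher Bglap and lower Sp7 and Runx2 values in view, so they are a description and no test is given. The log2 ratio of Bglap to Sp7 counts was 1.21, 1.58, 1.38, 1.40 and 0.59 in WT, and 1.77, 1.83, 1.88 and 2.77 in the libraries labelled FcγRIIB-/-. All 4 lay above all 5 WT libraries, and replicates 1 to 3 did so within a narrow range while replicate 4 stood apart. The means were 1.23 ± 0.38 and 2.06 ± 0.48 (SD, n = 5 and 4), a difference of 0.83. Against Runx2 the log2 ratio was 0.74, 1.06, 0.92, 1.05 and 0.21 in WT and 1.23, 1.32, 1.46 and 2.39 in the libraries labelled FcγRIIB-/-. The groups again did not overlap, with a mean difference of 0.80. Neither Bglap nor Runx2 passed on its own in the fit across all genes.

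**Figure D3:**
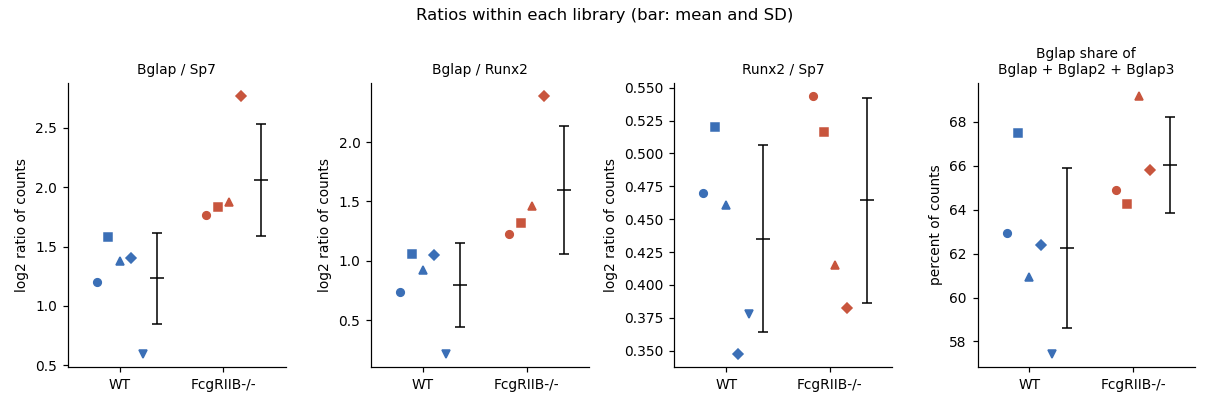
Log2 ratios of counts within each library and the percent of osteocalcin counts taken by Bglap, for WT (blue) and the libraries labelled FcγRIIB-/- (red), with bars for the mean ± SD. The red points lie above the blue ones for Bglap over Sp7 and Bglap over Runx2, and overlap them for Runx2 over Sp7 and for the Bglap share.

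The phosphatases did not pass. Alpl (11647), which encodes the tissue-nonspecific alkaline phosphatase that splits pyrophosphate, had 584.5, 840.5, 707.1, 644.2 and 577.6 CPM in WT and 720.2, 716.9, 657.8 and 798.6 CPM in the libraries labelled FcγRIIB-/-. All 4 lay above the WT median, within the range of WT. Its log2 fold change was 0.11 (SE 0.12, adjusted p = 0.518, edgeR), from means of 671 ± 108 and 723 ± 57.8 CPM. Phospho1 (237928), which releases phosphate from phosphocholine in matrix vesicles, had 67.2, 57.9, 61.1, 67.2 and 73.7 CPM in WT and 76.3, 55.5, 46.8 and 63.2 CPM in the libraries labelled FcγRIIB-/-. The highest and the lowest library were both in the latter group. Its log2 fold change was -0.11 (SE 0.13, adjusted p = 0.525, edgeR). Of the genes that overlap it in GENCODE vM21, Zfp652 was at -0.61 (adjusted p = 0.00107) and Abi3, on the other strand, at 0.23 (adjusted p = 0.328). Only Abi3 overlaps it in RefSeq. The log2 ratio of Alpl to Phospho1 differed by 0.25 between the group means, and that of Alpl to Runx2 by 0.34, both with overlapping groups and, as ratios chosen after the counts had been seen, with no test. That Alpl and Phospho1 missed the threshold does not show that their levels were equal.

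Ifitm5 (73835), which encodes an osteoblast membrane protein mutated in a form of osteogenesis imperfecta, rested on few reads. It had 171, 208, 160, 214 and 198 counts in WT and 139, 133, 80 and 111 counts in the libraries labelled FcγRIIB-/-, or 6.20, 8.35, 6.17, 7.86 and 7.73 CPM against 4.87, 6.15, 3.39 and 5.63 CPM. All 4 lay below all WT libraries, the highest by a narrow margin. The means were 7.26 ± 1.01 and 5.01 ± 1.199 CPM, and the log2 fold change was -0.54 (SE 0.18, adjusted p = 0.0434, edgeR). The call held in 8 of 17 alternatives. It was lost with upper-quartile factors (adjusted p = 0.0526), with Col1a1 and Col1a2 scaling (0.152) and in 7 of the 9 analyses without 1 library, and held only without WT replicate 3 or replicate 2 of the libraries labelled FcγRIIB-/-. The log2 fold change stayed negative in all 17, and without a library it ranged from -0.65 to -0.39 (adjusted p 0.0333 to 0.0968).

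Pth1r (19228), the receptor of parathyroid hormone and its related peptide, had 90.1, 92.5, 102.9, 89.0 and 109.6 CPM in WT and 86.2, 80.7, 98.9 and 77.1 CPM in the libraries labelled FcγRIIB-/-. Replicates 1, 2 and 4 lay below all WT libraries and replicate 3 lay among them. Its log2 fold change was -0.18 (SE 0.09, adjusted p = 0.161, edgeR), and it passed in 0 of 17 alternatives, DESeq2 among them.

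**Figure D4:**
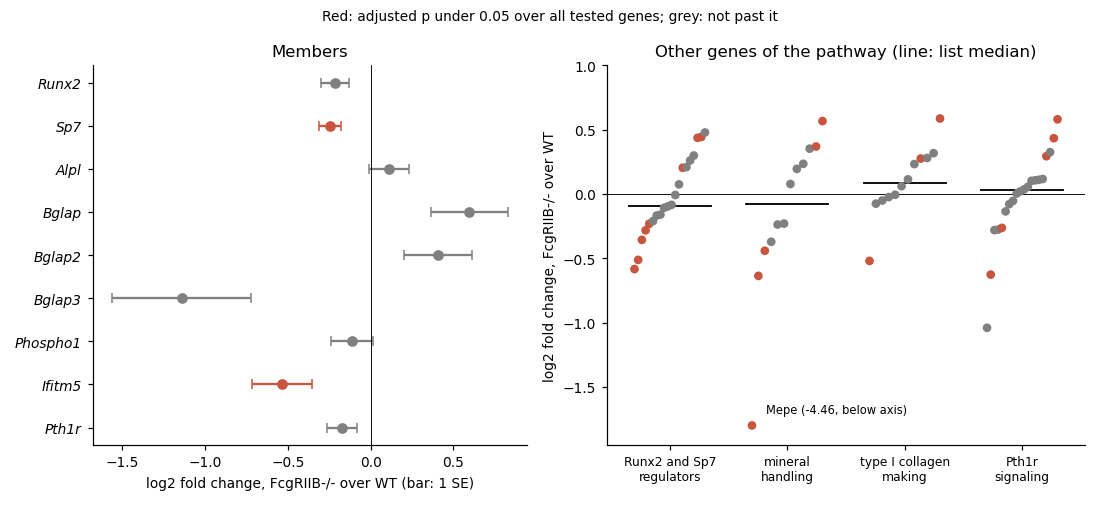
Left, log2 fold change of the 9 genes (libraries labelled FcγRIIB-/- over WT, bar 1 SE). Right, the same for the genes of the 4 pathway lists, with a line at each list's median and Mepe at -4.46 below the axis. Red marks genes called at 0.05 after adjustment over all genes. Sp7 and Ifitm5 are red on the left, and every list on the right holds red points on both sides of 0.

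**Figure D5:**
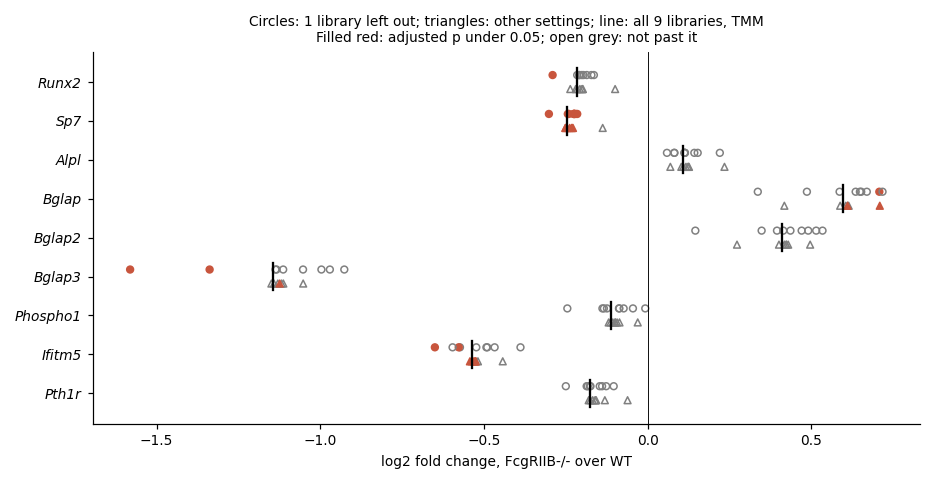
Log2 fold change of the 9 genes under the alternatives, with circles for 1 library left out, triangles for other settings and a line for all 9 libraries with TMM. Filled red marks an adjusted p under 0.05. No gene crosses 0, Sp7 is filled in all but 1 alternative, and Ifitm5 in 8 of 17.

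Levels were also set beside each other per length, as mean CPM per kb of the longest coding transcript. In WT the order was Bglap (713 ± 173), Bglap2 (389 ± 64.9), Alpl (266 ± 43.0), Sp7 (41.97 ± 0.930) and Pth1r (41.97 ± 3.91), Phospho1 (34.2 ± 3.21), Runx2 (27.2 ± 1.48), Ifitm5 (9.49 ± 1.32) and Bglap3 (1.82 ± 0.7101). The ranges over libraries overlapped between Bglap (443 to 893) and Bglap2 (297 to 460.5), between Bglap2 and Alpl (229 to 333) and between Sp7 and Pth1r. Within a library, Bglap was above Bglap2 and Bglap2 above Alpl in 5 of 5 WT libraries and in 4 of 4 libraries labelled FcγRIIB-/-. The places of Bglap and Bglap2 depend on how shared reads were divided between them, which is uncertain. Of their windows 66.1% and 73.3% are shared, and the lengths were not limited to the rest. Sp7 was above Pth1r in 3 of 5 and 2 of 4, and these levels did not differ beyond their spread. Pth1r was above Phospho1 in 5 of 5 WT libraries and in 3 of 4 of the others. In the libraries labelled FcγRIIB-/- the order was the same except that Pth1r (37.2 ± 4.14) stood above Sp7 (35.4 ± 2.88), again with overlapping ranges. Bglap and Bglap2 were the most abundant of the 9 per length in both groups and Bglap3 the least.

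Among the 9 mice, with the genotype means removed, the deviations of log2 CPM were compared for the 36 pairs of genes. Bglap and Bglap2 had the highest correlation (Pearson's r = 0.896, exact permutation p = 0.00521 within genotype, Spearman's rho = 0.9, exact p = 0.00556, and r = 0.797 without the 2 libraries farthest from the median of Bglap). This pair shares sequence as well as library and depth. Alpl and Bglap had r = 0.737 (exact p = 0.0257) and rho = 0.783 (exact p = 0.0191), with r = 0.649 without the 2 libraries farthest from the median of Alpl. Runx2 and Sp7 had r = 0.784 (exact p = 0.0767) and rho = 0.583 (exact p = 0.146), and r = 0.247 without the 2 libraries farthest from the median of Runx2, so this relation rests on those libraries. No pair passed after adjustment over the 36 (smallest adjusted p 0.188 for r and 0.2 for rho, exact permutation).

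Partners and upstream regulators of Runx2 and Sp7 were examined next, as a list of 20 genes. By edgeR 3 were higher and 5 lower, and the median log2 fold change was -0.09, beside 0.0055 for all tested genes. The higher ones were Bmp4 (0.44, adjusted p = 0.0262), a bone morphogenetic protein, Dlx3 (0.44, 0.0219), a homeobox factor of bone and teeth, and Atf4 (0.20, 0.0439), a factor that acts with Runx2 on osteocalcin. Those that fell most were Hdac4 (-0.58, adjusted p = 0.00366), a deacetylase that represses Runx2, Lrp5 (-0.51, 0.00446), a Wnt co-receptor that controls bone mass, and Twist2 (-0.36, 0.0222), an inhibitor of Runx2. Twist1 and Lrp6, named after their values were seen, were the remaining 2 of the 5. The partner subunit Cbfb (-0.08, adjusted p = 0.307), the receptor Bmpr1a (-0.17, 0.176) and the BMP signal transducer Smad5 (-0.0079, 0.951) did not pass. The lower count dropped to 2 without WT replicate 1, 2 or 4 and to 3 without WT replicate 5, and the higher count to 1 and 0 without replicates 3 and 4 of the libraries labelled FcγRIIB-/-.

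Of 12 genes of phosphate, pyrophosphate and mineral-binding proteins, 2 were higher and 3 lower, with a median of -0.08. Mgp, an inhibitor of calcification, rose by 0.57 (adjusted p = 0.0178, edgeR), and Fam20c, the kinase that phosphorylates secreted mineral-binding proteins, by 0.37 (adjusted p = 0.0074). Mepe, an osteocyte protein of the same family as bone sialoprotein, was at -4.46 (adjusted p = 0.0232) from an uneven 57.8 ± 105 CPM in WT and 2.63 ± 2.30 CPM in the libraries labelled FcγRIIB-/-. Ibsp, bone sialoprotein, was at -0.64 (adjusted p = 0.0426), and Smpd3, a sphingomyelinase needed for mineralization, was at -0.44 (adjusted p = 0.0239). Spp1 (-0.37, adjusted p = 0.298), Phex (0.23, 0.338) and Slc20a2 (0.35, 0.0935) did not pass. The lower count was 1 without WT replicate 5 or replicate 1 of the libraries labelled FcγRIIB-/-, and 0 without replicate 3 or 4 of the latter.

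Type I collagen and its processing, 12 genes, held 2 higher and 1 lower, with a median of 0.09. Of the 2 chains, Col1a1 had 31252 ± 5993 and 32590 ± 4597 CPM, a log2 fold change of 0.06 (adjusted p = 0.823, edgeR), whereas Col1a2 had 18057 ± 2801 and 12590 ± 410 CPM, a log2 fold change of -0.52 (adjusted p = 0.0191) with no overlap. The lysyl hydroxylases Plod2 (0.59, adjusted p = 0.00235) and Plod1 (0.28, 0.00714), which prepare collagen for cross-linking, were higher. Sparc (-0.08, adjusted p = 0.672) and the collagen chaperone Serpinh1 (0.32, 0.0632) did not pass. Col1a2 was not called without WT replicate 3 or without replicate 2 of the libraries labelled FcγRIIB-/-, and the higher count was 4 without replicate 4.

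The list around Pth1r held 20 genes, of which 3 were higher and 2 lower, with a median of 0.03. Rgs2 (0.58, adjusted p = 0.0309, edgeR), a regulator of G protein signalling induced by the hormone, Gnas (0.43, 0.0088), the stimulatory G protein subunit, and Pde4d (0.29, 0.0234), which degrades cyclic AMP, were higher. The kinases Sik2 (-0.63, adjusted p = 0.0037) and Sik3 (-0.26, 0.0316), which the pathway switches off, were lower. Mmp13 (-1.04, adjusted p = 0.0761), the collagenase of bone, was the most divergent of those that did not pass, and Prkar1a (0.04, 0.76) and Hdac5 (0.0034, 0.976) were near 0. The lower count was 1 without WT replicate 2, 3, 4 or 5 or without replicate 1 or 3 of the libraries labelled FcγRIIB-/-, and the higher count was 1 without replicate 3 of the latter.

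Set beside the background of 33.3% called, 40% of the regulators, 41.7% of the mineral genes, 25% of the collagen genes and 25% of the genes around Pth1r were called. With 12 to 20 genes a list, these shares are counts of few genes, and nothing particular to a list is read from them.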

How the data were processed

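Mandibles including the teeth were profiled in 5 WT mice and in 4 labelled FcγRIIB-/-. Per the labels and the study's methods, the authors made stranded poly(A) libraries, read 75 bases from 1 end, trimmed with Trim Galore, mapped to mm10 with HISAT 02.1.0 and deposited raw featureCounts counts without normalization. The annotation, the strand setting and the treatment of multiply mapped reads are not given in the sources used here. The table held 1 column of values that matched no sample and was not used, and 1030 rows without a symbol (0.0971% of counts) were kept under their identifiers.

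From these counts, edgeR 4.0.16 in R 4.3.3 was run with filterByExpr (minimum count 10), TMM, the quasi-likelihood test of genotype alone, and Benjamini-Hochberg adjusted p-values at a threshold of 0.05. Standard errors came from the fold change and its F statistic, and log2 CPM used a prior count of 2. The Bglap share was tested with a two-sided exact permutation test over the 126 splits, and ratios chosen after the counts were seen got no test. DESeq2 1.42.0, other scalings and filters, a replicate block and leaving out each library were alternatives. The fit was tested on simulated counts of 16199 genes, 200 of them changed by a log2 fold change of 1: 76.6% of these were called, and 5.77% of calls fell on unchanged genes. In the data 33.3% of genes were called, and Sp7 and Ifitm5 were at -0.25 and -0.54. The simulated rates therefore do not give the power or the error for the 9 genes. No pair of libraries within a group was a repeat (lowest chi-square per gene 12.5). Totals of 21453880 to 28991631 counts leave genes such as Bglap3 and Ifitm5 on few reads.

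The 9 genes and the lists were chosen with earlier results of these data known. Beyond the 9 genes, those named are Fcgr2b, Col1a1, Col1a2, in each list up to 3 called genes per direction by fold change and up to 3 uncalled ones by level, and, for each gene, the 3 most alike across mice. Some genes that overlap one of the 9 were added, with any others marked where they appear. Transcripts came from GENCODE vM21, promoters from RefSeq (GRCm38.p6), and overlaps from both.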

Additional observations from a re-analysis of the deposited data

How the results depend on the processing

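No fold change of the 9 genes changed sign in any alternative, and Alpl, Bglap2, Phospho1 and Pth1r were called in none. Of the other scalings, upper-quartile factors left 1 of the 9 genes called lower, and DESeq2 called 1 higher and 5 of the regulators higher. Scaling to Col1a1 and Col1a2 gave 1252 genes higher and 1366 lower over all genes, against 2289 and 3144, with 1 of the 9 genes higher and 0 lower, 0 regulators lower, 1 mineral gene lower, 1 collagen gene higher and 0 lower, and 0 genes around Pth1r lower. The cause was not tested. Leaving out each library in turn gave 1781 to 2292 genes higher and 2521 to 2771 lower, 0 to 1 of the 9 genes higher and 1 to 3 lower, 0 to 4 regulators higher and 2 to 4 lower, 0 to 2 mineral genes lower, 2 to 4 collagen genes higher and 0 to 1 lower, and, around Pth1r, 1 to 3 higher and 1 to 3 lower. These fits hold fewer samples. The difference in the Bglap share of osteocalcin counts was 2.59 to 5.10 percentage points.

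Replicate numbers do not mark a shared source, and mice sharing a number did not all deviate together (r of 0.163, 0.111, -0.145 and -0.0795 for numbers 1 to 4). With the replicate block 1594 genes were higher and 2410 lower, 0 of the 9 genes were higher and 2 lower, and 1 gene around Pth1r was lower. Blocked, the share difference was 2.59 points (exact permutation p = 0.375). Low counts limit Bglap3 and Ifitm5, and sequence shared between the copies limits Bglap and Bglap2.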

Other observations

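For each of the 9 genes, the genes whose log2 CPM deviated most alike from the genotype means over the 9 libraries were listed by Pearson's r, among 12959 genes whose average log2 CPM was 2 or more (12960 for Bglap3). With so many genes and 9 libraries, high values arise readily, and these are descriptions of shared libraries and depth without a test. Sp7 was most like Phc3 (r = 0.962), Rufy2 (0.953) and Prkca (0.93), and Runx2 was most like Mab21l1 (r = 0.961), Rrad (0.935) and Zfp609 (0.933). For osteocalcin, Bglap was most like Pck2 (r = 0.985), Ninj1 (0.981) and Klc4 (0.976), and Bglap2 was most like B3gntl1 (r = 0.996), Fam120aos (0.985) and Nfkbil1 (0.985). Bglap3 was most like Nipal2 (r = 0.972), Per3 (0.956) and Cys1 (0.955).

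Among the enzymes, Alpl was most like Arap1 (r = 0.974), Neu3 (0.961) and Agtrap (0.95), and Phospho1 was most like Synj2 (r = 0.975), Def8 (0.964) and Ctdsp1 (0.959). Ifitm5 was most like Sncaip (r = 0.962), Atp8a1 (0.954) and Fam193a (0.947). Pth1r was most like Shox2 (r = 0.967), Larp6 (0.964) and Aida (0.949). None of the 9 genes was among the 3 most like another of the 9.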
